A study of Mus musculus with 4 samples.

Results

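Interleukins and interleukin receptors were taken as every gene on a mouse whole-genome array whose symbol starts with "Il" followed directly by a digit, whether or not it was detected. This rule found 82 genes of 34607 on the array, read by 105 probes. Of these, 39 encode ligands, 41 encode receptor chains or binding proteins, and the others are Il4i1, an enzyme that breaks down amino acids, and the antisense transcript Il1bos. The rule leaves out partners with other names, such as Csf2rb or Ebi3, which were described as separate lists. The symbols are those of the array's design, so the IL-36 ligands appear as Il1f5 (IL-36 receptor antagonist), Il1f6, Il1f8 and Il1f9.

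RNA of whole kidney from female BALB/C mice, 6 weeks old at the start, was hybridized to 4 one-colour Agilent arrays, 2 from mice with membranous nephropathy (MN) and 2 from control mice. Membranous nephropathy is a glomerular disease in which immune complexes lie on the outer side of the filter. MN mice had been immunized with 0.2 mg of cationic bovine serum albumin (cBSA) in complete Freund's adjuvant and, after 2 weeks, received 13 mg/kg of cBSA by vein, with 3 doses per week over 6 weeks. Control mice had received the same immunization with cBSA and adjuvant and then vehicle, named saline in one label and PBS in another. An immunized kidney therefore stood on both sides of every comparison, and the groups differed in the repeated intravenous antigen. The labels leave unsaid if the arrays stand for separate animals, so p-values cover only the spread among these 4 samples, which may be technical. Replicate 1 of both groups shared one slide and replicate 2 of both groups shared the other.

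Interleukins are secreted proteins through which immune, epithelial and stromal cells signal to each other. The IL-1 and IL-17 families act through MyD88 or Act1 adaptors towards NF-kB, whereas most other interleukins bind receptors that activate JAK kinases and STAT factors. Many receptors share a chain, such as the common gamma chain Il2rg, the IL-6 signal transducer Il6st (gp130) or Il10rb. In kidney, tubular epithelium, endothelium and resident macrophages are known to make IL-15, IL-18, IL-33 and IL-34, while T-cell cytokines such as IL-4, IL-13, IL-17A and IL-21 come mainly from few infiltrating cells.

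Values are log2 of the background-subtracted signal minus the array's 75th percentile, so 0 is the 75th percentile of that array, and a difference of 1 is 2-fold. To be tested, a gene needed a probe well above background on both MN arrays, on both control arrays or on all 4, and its brightest probe was used. All 10 proximal tubule markers and all 10 markers of the loop, distal tubule and collecting duct passed this filter. Of the non-control spots, 64.0% and 63.1% were well above background on MN arrays 1 and 2, against 65.9% and 79.5% on control arrays 1 and 2, so control array 2 stood apart. The median difference between MN and control over all 25296 genes tested was -0.05.

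Detection divided the ligands from the receptors. Of the 82 genes, 54 were tested (65.85%, against 73.1% of all genes on the array): 32 of 41 receptor chains and binding proteins, but 21 of 39 ligands. On all 4 arrays, 46 genes were well above background. At the other end, 15 genes were above background on no array, namely the ligands Il1a, Il1f8, Il6, Il12a, Il13, Il17b, Il17c, Il21 and Il31, the receptor genes Il1r2, Il1rl2, Il1rapl2, Il18rap and Il23r, and Il1bos. The transcripts of IL-6 and of the effector T-cell cytokines IL-13 and IL-21 were therefore not detectable with these probes in either group. A further 12 genes were above background on 1 array, and for 10 of them that was control array 2, among them Il4, Il5, Il1rn, Il7r and Il21r. Il1f9, an IL-36 agonist, was detected on MN array 1 alone and Il20ra, a chain of the IL-20 receptor, on MN array 2 alone.

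The number of interleukin and receptor genes detected was 52 and 48 on MN arrays 1 and 2, against 55 and 64 on control arrays 1 and 2. The counts did not overlap between the groups, and they followed the share of all spots detected on each array. Il9, a mast-cell and T-cell growth factor, was split by slide and not by group. It was well above background at -3.87 on MN array 1 and -4.08 on control array 1, both on slide 1, and not on either array of slide 2. Il9 was not tested.

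**Figure D1:**
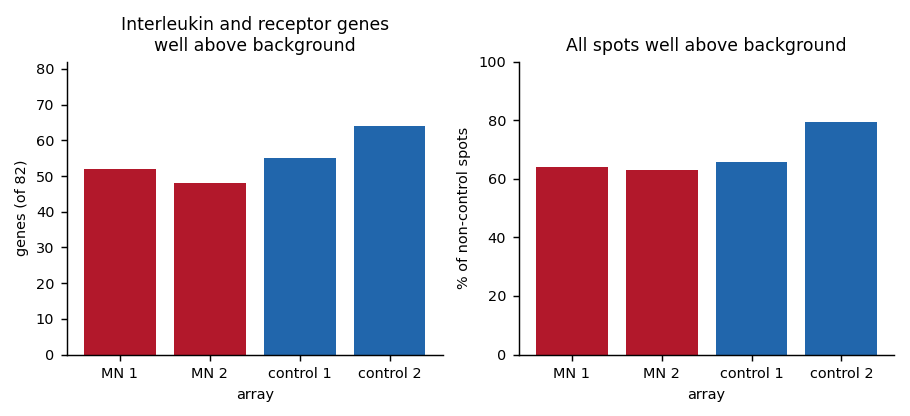
Bars give, for each array, the number of the 82 interleukin and receptor genes well above background (left) and the percentage of all non-control spots well above background (right), with MN arrays in red and control arrays in blue. Control array 2 had the most genes detected, 64, and the highest share of spots, 79.5%.

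No interleukin or receptor gene passed an adjusted p of 0.05 in limma over all genes, against 5 of 25296 genes overall (0.0198%). The smallest adjusted p among them was 0.293. At an unadjusted p under 0.05, 2 of 54 tested genes were higher in MN (3.7%, against 3.54% of all genes), Il33 and Il6ra. Another 3 were lower in MN (5.56%, against 3.49% of all genes), Il15ra, Il17f and Il7. Of these, Il7 was not well above background on either of the MN arrays and was tested through its control values. In this fit both shares lay near the background. These counts rested on single arrays. Without control replicate 1, 0 genes were higher (0%, against 2.13% of all genes) and 3 lower (5.56%, against 3.46% of all genes). Without MN replicate 1 it was 1 higher (1.85%, against 1.85% of all genes) and 7 lower (13%, against 3.8% of all genes). Without MN replicate 2 it was 0 higher (0%, against 1.73% of all genes) and 2 lower (3.7%, against 1.85% of all genes). Il15ra alone was among the lower genes in each of these 3 settings. The lower genes without MN replicate 1 included Il19, Il1f5, Il22ra2 and Il23a, not well above background on MN array 2, the only MN array kept. These met the filter through control alone, as did Il17a and Il2ra among the lower genes without control replicate 1. Without control replicate 2, the array that stood apart, 2 were higher (3.7%, against 3.46% of all genes), Il15 and Il6ra. In that setting 4 were lower (7.41%, against 1.97% of all genes), Il15ra, Il17f, Il2rb and Il7. A difference of 2-fold or more was found for no gene higher in MN (0%, against 1.07% of all genes) and for 2 lower (3.7%, against 1.54% of all genes), Il15ra and Il19, the second with 1 MN array below detection.

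Both MN arrays lay above both control arrays for 8 genes (14.8%, against 13.2% of all genes) and below both for 17 (31.5%, against 19.9% of all genes). Among the 17, Il7 and Il22ra2 were well above background on no MN array and were tested through their control values. Il17a and Il1f5, each not well above background on 1 MN array, were also tested through their control values. Without control replicate 2, where only 3 arrays have to be apart, the numbers were 16 (29.6%, against 33% of all genes) and 25 (46.3%, against 37.8% of all genes). The median difference of the 54 genes was -0.09, with 21 positive and 33 negative. A positive difference was found for 38.89% of them and for 38.56% of all genes. A difference within 0.2 of 0 was found for 20 of the 54, and 15 lay beyond 0.5 in either direction. The median standard error of a difference was 0.193.

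**Figure D2:**
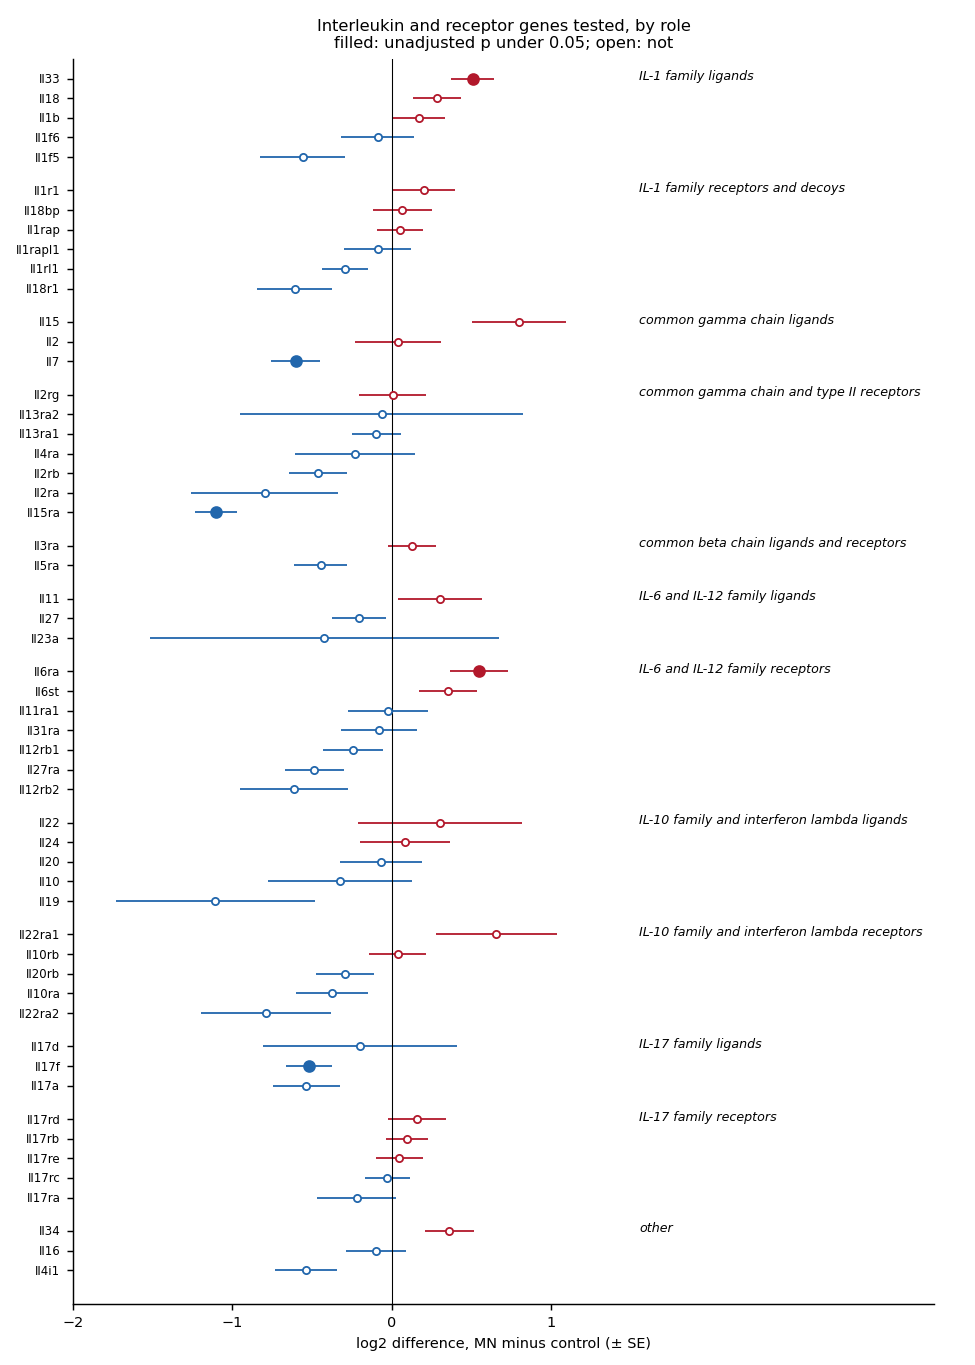
Log2 difference between MN and control with its standard error (2 arrays a group) for each of the 54 tested genes, grouped by role. Red marks positive and blue negative differences, and filled points have an unadjusted p under 0.05. Of the 54 genes, 15 lie beyond 0.5 in either direction, and Il15ra and Il19 alone lie beyond -1.

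Within slide 1 the median difference was -0.04 and within slide 2 it was -0.20. The tested ligands had a median of 0.16 on slide 1 and -0.34 on slide 2, while receptor chains and binding proteins were at -0.07 and -0.17. The split was widest for the ligands of the common gamma chain (0.48 and -0.40) and of the IL-6 and IL-12 family (0.44 and -0.31), each with 3 tested genes. The difference had the same sign on both slides for 41 of 54 genes (75.93%, against 63.38% of all genes tested). With the slide as a block, limma gave 5 genes higher in MN at an unadjusted p under 0.05 (9.26%, against 6.29% of all genes): Il15, Il33, Il34, Il6ra and Il6st. It gave 12 lower (22.2%, against 9.05% of all genes): Il7, Il15ra, Il17a, Il17f, Il19, Il10ra, Il1rl1, Il27ra, Il2ra, Il2rb, Il4i1 and Il5ra. Il7 and Il2ra were not detected on the MN arrays and entered through control alone. Il17a and Il19, each not well above background on 1 MN array, also met the filter through control alone. Among the 12, Il15ra was read by a probe with a repeat described below. With all of these genes counted, the share of lower genes with the block was above that of all genes, and no test of the list was run. None passed the adjusted threshold with the block either, where the smallest adjusted p was 0.170 and 0 of 25296 genes were called (0%).

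**Figure D3:**
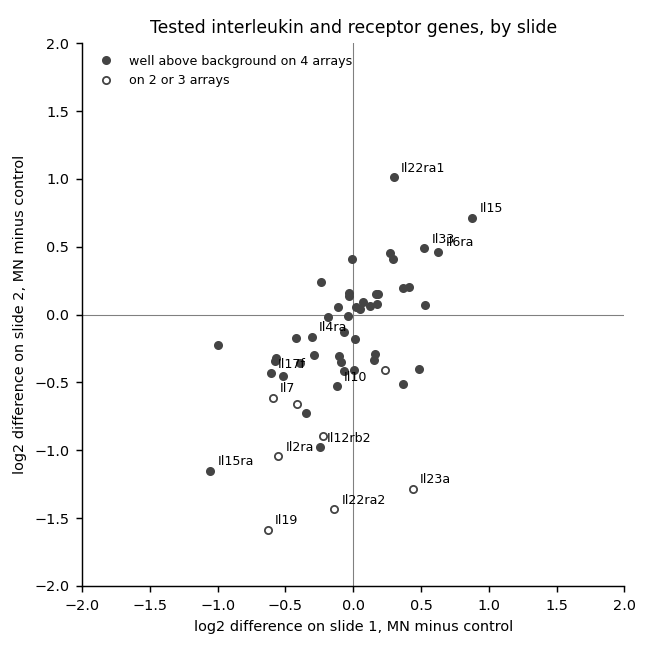
Each point is a tested gene, with its log2 difference (MN minus control) on slide 1 on the horizontal axis and on slide 2 on the vertical axis. Filled points were well above background on 4 arrays and open points on 2 or 3. Il15, Il33 and Il6ra lie to the upper right and Il15ra to the lower left, while Il23a has opposite signs on the slides.

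The probes behind the 5 genes at an unadjusted p under 0.05 are shown because each of those values rests on 1 probe. Each line gives 30 of the probe's 60 bases, 5′ to 3′. Positions are those of the whole probe on mm9, per the array files. Capitals mark a run of TG units.
Il33 (chr19:30035101-30035160, plus strand): atctttaaagtagtaactacgtagtcaaat
Il6ra (chr3:89674054-89674113, minus strand): aacggtagcccaaacaccaagtcaagtgaa
Il7 (chr3:7573207-7573266, minus strand): ttattccaaagatactgaaccttagtattc
Il17f (chr1:20768074-20769419, minus strand): ccagaaccgctccagttccccatgggatta
Il15ra (chr2:11655416-11655475, plus strand): atatgtaTGTGTGTGTGTGTGTGtatgtaa
The listed span of the Il17f probe is 1346 bases for 60 bases of probe, so it joins separate pieces of the genome.

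In the IL-1 family, the ligand with the smallest unadjusted p was Il33, which encodes a nuclear alarmin released by damaged endothelial and stromal cells. Its level was 0.24 and 0.29 on the MN arrays, against -0.28 and -0.20 on the control arrays. The groups did not overlap, and replicates lay close together. The difference was 0.51 ± 0.14 (SE, n = 2 arrays a group), or 1.42-fold, with 0.52 on slide 1 and 0.49 on slide 2. Limma gave an unadjusted p of 0.0203 and an adjusted p of 0.561. Il1rl1, the receptor ST2 through which IL-33 acts, lay on the other side: it was at -3.42 and -3.54 on the MN arrays and at -3.13 and -3.24 on the control arrays. Its difference was -0.30 ± 0.14 with a limma p of 0.108, and 0.0483 with the slide as a block.

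Il18, an epithelial cytokine matured by caspase-1, was at -0.92 and -1.11 on the MN arrays, against -1.29 and -1.31 on the control arrays. The groups did not overlap, but the difference of 0.28 ± 0.15 had a limma p of 0.129. Il1b, the main inflammatory product of activated macrophages, was at -2.97 and -3.18 in MN and at -3.15 and -3.33 in control, so its groups overlapped at a difference of 0.17 ± 0.16. Il1f5, the IL-36 receptor antagonist, was at -4.20 and -4.86 in MN, against -3.98 and -3.96 in control, and was not well above background on MN array 2. Its difference was -0.56 ± 0.27.

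Of the 6 tested receptors and decoys of the IL-1 family, 3 had positive and 3 negative differences, with a median of -0.02. The signalling receptor Il1r1 was at -0.89 and -0.87 in MN and at -0.88 and -1.28 in control, a difference of 0.20 ± 0.19 that came from control array 2 alone. Il18r1, a chain of the IL-18 receptor, was at -4.65 and -4.19 in MN, against -3.65 and -3.96 in control. Its groups did not overlap, and the difference was -0.61 ± 0.24 with a limma p of 0.061, at -0.99 on slide 1 and -0.22 on slide 2. IL-18 binding protein, the soluble decoy Il18bp, differed by 0.07 ± 0.19.

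Among ligands of the common gamma chain receptors, Il15 and Il7 lay on opposite sides. Il15 sustains natural killer cells and memory T cells and is made by tubular epithelium among other cells. It was at -0.62 and -0.18 on the MN arrays, against -1.49 and -0.89 on the control arrays. Both MN arrays were above both control arrays, yet slide 2 was the higher one in each group. The difference of 0.80 ± 0.29, or 1.74-fold, was 0.88 on slide 1 and 0.71 on slide 2. Limma gave a p of 0.0539 and an adjusted p of 0.726, and a p of 0.00383 with the slide as a block. It was the largest positive difference among the 54 genes.

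Il7, a growth factor of lymphocyte precursors, was at -5.23 and -5.40 in MN, against -4.63 and -4.79 in control. Neither MN array had it well above background. With MN values raised at least to the array's lowest signal well above background, the control mean was 1.09-fold higher, which is no firm bound. Limma gave Il7 an adjusted p of 0.543. Its receptor chain Il7r was above background on control array 2 alone and was not tested. Il2, the T-cell growth factor, differed by 0.04 ± 0.27 and with opposite signs on the slides, 0.48 on slide 1 and -0.40 on slide 2.

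The receptors of this group had a median difference of -0.23, with 1 positive and 6 negative of 7 tested. The shared chain Il2rg itself was at -1.97 and -1.95 in MN and at -1.73 and -2.20 in control, a difference of 0.00 ± 0.21. Il2rb, the signalling chain for IL-2 and IL-15, was at -2.52 and -2.62 in MN, against -1.94 and -2.27 in control. Its groups did not overlap, and the difference was -0.46 ± 0.18 with a limma p of 0.0628. The other Il2rb probe gave -0.14, with overlap and with 0.09 on slide 1 and -0.37 on slide 2. Il2ra, the chain that gives the IL-2 receptor high affinity, was at -5.15 and -4.55 in MN, against -4.60 and -3.50 in control. Neither MN array had it well above background, and its groups overlapped. With MN values raised at least to the array's lowest signal well above background, the control mean was 1.59-fold higher, which is no firm bound. Il4ra, which binds IL-4 and IL-13, was at -1.40 and -2.02 in MN and at -1.09 and -1.86 in control, overlapping at -0.23 ± 0.38.

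Il15ra, which presents IL-15 to neighbouring cells, had the smallest p of the family. The brightest probe gave 3.57 and 3.54 on the MN arrays, against 4.63 and 4.69 on the control arrays. The groups lay about 1 unit apart with almost no spread, and the difference was -1.10 ± 0.13, or 2.15-fold lower in MN. Limma gave a p of 0.00118 and an adjusted p of 0.293. The other probe of the gene, 607 bases upstream, gave -2.42 and -1.80 in MN and -2.18 and -1.61 in control. There the groups overlapped at a difference of -0.21, with a p of 0.551 when it stood for the gene.

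The Il15ra probes differ in sequence. The one with the large difference, printed above, holds an unbroken run of 8 TG units, and the other holds at most 2 in a row. One of the Il4ra probes holds 6. These probes were looked at together after their values had been seen, and the windows below are shown to set a repeat beside ordinary sequence.
Il15ra, the probe without a long run (chr2:11654809-11654868, plus strand): taccaatgactgtgagggccagcagcaagg
Il4ra, the dimmer probe (chr7:132712550-132712609, plus strand): tgccagcacTGTGTGTGTGTGccacatgga
Il4ra, the brighter probe (chr7:132722922-132722981, plus strand): caaccctcaccagtcccatctcttcattct
The Il4ra probe with the repeat gave a difference of -0.40, with 0.13 on slide 1 and -0.92 on slide 2, and the brighter one gave -0.23.

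Of 122 tested probes with 6 or more TG units in a row, 119 had a negative difference. Of all tested probes on the array, 75 held 8 or more TG units in a row. They stood for 75 different genes, and all 75 differences were negative, with a median of -0.96 and quartiles of -1.09 and -0.80. By slide, their median was -0.84 (slide 1) and -1.06 (slide 2). The 23 probes with 8 or 9 units, the class of the Il15ra probe, had a median of -1.06. For 6 or 7 units the median of 47 probes was -0.81. It was -0.08 for 218 probes with 4 or 5 units and -0.06 for 35922 probes with 0 to 3 units. The value of the bright Il15ra probe thus lay inside the range of unrelated probes that share its repeat. With every probe of 6 or more units left out, a setting added after the values were seen, Il15ra was at -0.21 with a limma p of 0.549 and an adjusted p of 0.9999. The number of family members lower at an unadjusted p under 0.05 was then 2, Il17f and Il7. What lies behind the difference of the repeat probes was not tested.

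**Figure D4:**
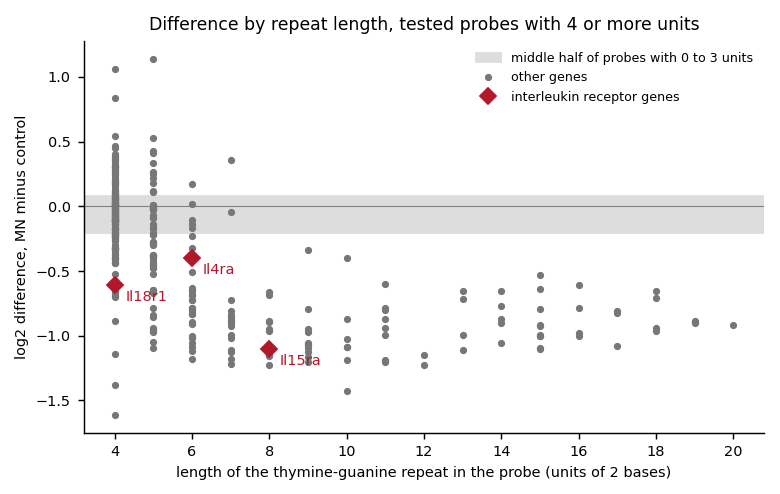
Each point is a tested probe with 4 or more thymine-guanine units in a row, with the number of units on the horizontal axis and the log2 difference (MN minus control) on the vertical axis. Red diamonds are probes of interleukin receptor genes, and the grey band covers the range between the quartiles of the 35922 probes with 0 to 3 units. From 8 units on every point lies below 0, and the Il15ra probe at -1.10 is among them.

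Of the receptors that use the common beta chain, Il5ra, which serves eosinophils, was at -4.17 and -4.21 in MN, against -3.60 and -3.88 in control. The groups did not overlap, and the difference was -0.45 ± 0.17 with a limma p of 0.0551. With normexp background correction it was -0.18. Il3ra was at -2.74 and -2.64 in MN and at -2.92 and -2.72 in control and differed by 0.13 ± 0.15. The ligands Il3 and Il5 were each above background on control array 2 alone.

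Both chains of the IL-6 receptor had positive differences that did not pass the adjusted test, and Il6 itself was not detected. Il6ra, the ligand-binding chain, was at 1.06 and 1.22 on the MN arrays, against 0.43 and 0.76 on the control arrays. The groups did not overlap. The difference was 0.55 ± 0.18, or 1.46-fold, with 0.63 on slide 1 and 0.46 on slide 2, at a limma p of 0.041 and an adjusted p of 0.673. Il6st, the transducer shared by IL-6, IL-11, IL-27 and related cytokines, was at 2.17 and 1.99 in MN, against 1.88 and 1.57 in control. It did not overlap either and differed by 0.35 ± 0.18, with a limma p of 0.126 and 0.0361 with the slide as a block.

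Il11, a cytokine that signals through Il6st in stromal and epithelial cells, was at -1.97 and -1.81 in MN and at -2.50 and -1.88 in control. Its difference of 0.30 ± 0.26 came mostly from slide 1, at 0.53, against 0.07 on slide 2. Il11ra1, its receptor, was at 4.34 and 4.78 in MN and at 4.38 and 4.79 in control and differed by -0.02 ± 0.25, with a larger gap between slides than between groups.

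The receptors of the IL-12 branch had negative differences that did not pass the test. Il12rb2, the chain that marks type 1 T helper cells, was at -1.53 and -2.40 in MN, against -1.28 and -1.42 in control, a difference of -0.61 ± 0.34. Il27ra was at -4.20 and -3.91 in MN, against -3.68 and -3.45 in control, a difference of -0.49 ± 0.19 with a limma p of 0.059. Il12rb1, shared by the IL-12 and IL-23 receptors, differed by -0.24 ± 0.19. All 3 had groups without overlap by these probes, while the other Il12rb1 probe gave -0.04 with overlap. Il23a, the specific subunit of IL-23, shows the other extreme: it was at -3.99 and -6.84 in MN and at -4.42 and -5.56 in control, not well above background on MN array 2, with a standard error of 1.09 around -0.42.

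In the IL-10 family, all 5 ligands were tested, and for each of them the groups overlapped. Il10, which restrains macrophages, was at -3.39 and -4.43 in MN and at -3.27 and -3.90 in control, a difference of -0.33 ± 0.45. Il19 had the largest negative difference of the family, -1.11 ± 0.62, but it was at -4.47 and -6.07 in MN and at -3.84 and -4.49 in control, below detection on MN array 2, and its groups overlapped. It was -0.44 with normexp background correction and -0.31 without MN replicate 2. Il22, which acts on epithelium, differed by 0.30 ± 0.51 with a gap of about 1 unit between the slides in both groups: -3.49 and -2.60 in MN and -3.89 and -2.80 in control.

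Receptors of the IL-10 family ranged from -0.79 to 0.65. Il10rb, the chain shared by the receptors of IL-10, IL-22 and interferon lambda, was at 1.82 and 2.08 in MN and at 1.80 and 2.03 in control, a difference of 0.04 ± 0.18. Il10ra, specific to IL-10, was at -1.998 and -1.61 in MN, against -1.60 and -1.25 in control. It differed by -0.38 ± 0.23, with -0.39 on slide 1 and -0.36 on slide 2. The groups did not overlap, although MN array 2 and control array 1 nearly met. The soluble IL-22 decoy Il22ra2 was at -5.03 and -6.09 in MN, against -4.89 and -4.66 in control. Neither MN array had it well above background. With MN values raised in the same way as for Il2ra, the control mean was 1.04-fold higher, which is no firm bound.

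Il22ra1, the epithelial IL-22 receptor chain, depended on the probe. The brighter probe gave -3.43 and -2.47 in MN, against -3.73 and -3.48 in control, a difference of 0.65 ± 0.38. The dimmer probe, 3679 bases away, gave -4.51 and -4.70 in MN, where it was not well above background, and -4.66 and -3.38 in control. It was tested through its control values alone, and its difference of -0.59 was 0.15 on slide 1 and -1.32 on slide 2. Estimates of both signs were also listed for the probes of Il24 (0.08 and -0.94, the dimmer one below detection on MN array 2) and Il1rap (0.05 and -0.04). Of the 9 genes with several tested probes, these 3 had probes of both signs. Il24 is a cytokine related to IL-20, and Il1rap is the accessory chain shared by the IL-1, IL-33 and IL-36 receptors.

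All 3 tested ligands of the IL-17 family had negative differences, with a median of -0.52. IL-17A and IL-17F are made mainly by type 17 T helper cells and gamma delta T cells. Il17f was at -3.25 and -3.25 on the MN arrays, against -2.64 and -2.81 on the control arrays. The MN values were the same to 2 decimals and the groups did not overlap. The difference was -0.52 ± 0.14, or 1.43-fold lower in MN, with a limma p of 0.0228 and an adjusted p of 0.573. Il17a was at -4.91 and -4.72 in MN, against -4.49 and -4.06 in control, and was not well above background on MN array 1. It differed by -0.54 ± 0.21 with a limma p of 0.0647 and 0.0166 with the slide as a block. Il17d, a relative found in non-immune tissue, was at -0.73 and 0.23 in MN and at -0.74 and 0.63 in control, with overlap and a difference of -0.20 ± 0.61.

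The 5 receptors of the family were all well above background on every array and had a median difference of 0.04. Il17ra, the common chain, was at -1.28 and -1.80 in MN and at -1.19 and -1.45 in control, a difference of -0.22 ± 0.25. Il17rc, its partner for IL-17A and IL-17F, differed by -0.03 ± 0.14 and Il17rd by 0.16 ± 0.18. The receptor chains thus stayed within 0.25 of 0, and none had a limma p under 0.05.

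Outside these families, Il34, a ligand of the macrophage growth factor receptor Csf1r made by tubular epithelium, was at 0.77 and 0.74 in MN, against 0.50 and 0.28 in control. The groups did not overlap. The difference was 0.36 ± 0.15, with a limma p of 0.0782 and 0.0405 with the slide as a block. Il4i1, expressed by macrophages, dendritic cells and B cells, was at -2.01 and -2.42 in MN, against -1.67 and -1.69 in control. The groups did not overlap, and the difference was -0.54 ± 0.19 with a limma p of 0.0505. Il16, a chemoattractant for CD4+ cells, differed by -0.10 ± 0.19.

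**Figure D5:**
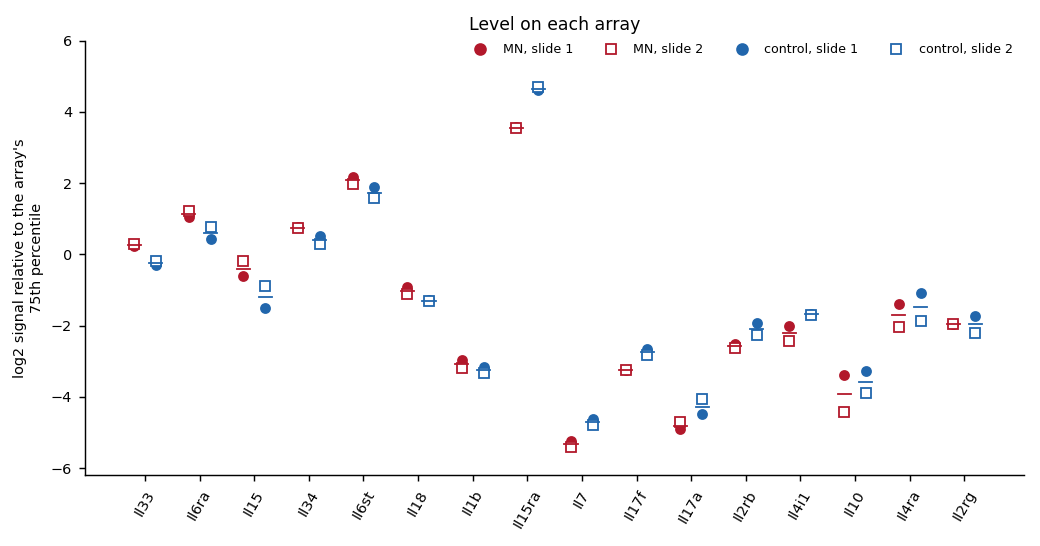
Level on each array for 16 of the genes described, as log2 signal relative to the array's 75th percentile, with MN in red to the left of control in blue and horizontal lines at the group means (2 arrays a group). Circles are slide 1 and squares slide 2. The groups are apart for Il33, Il6ra, Il15, Il34, Il15ra, Il7 and Il17f and overlap for Il1b, Il10, Il4ra and Il2rg. Heights of different genes are not comparable, since each is a different probe.

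Among genes that act downstream of the receptors or beside them, none of the 5 lists described here held one with an adjusted p under 0.05 in limma, although single genes differed by over 2-fold. Of the JAK, STAT and SOCS genes, 21 of 22 were tested, 3 with a positive and 18 with a negative difference, at a median of -0.07. The exceptions to small values were Socs2, an inhibitor of growth hormone and cytokine receptors, and Stat4, the transducer of IL-12. Socs2 was at 1.70 and 1.23 in MN, against 2.50 and 1.85 in control, a difference of -0.71 ± 0.31. Stat4 was at -4.42 and -4.25 in MN, against -3.90 and -3.95 in control, a difference of -0.41 ± 0.15 with a limma p of 0.0482, the only one of the list under 0.05. With normexp background correction the Stat4 difference was -0.17. Transducers of the IL-1 and IL-17 receptors (17 of 18 tested, 10 positive and 7 negative) had a median of 0.01 and none at an unadjusted p under 0.05. Irak2, a kinase of that route, had the largest difference, -0.34 ± 0.19.

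Partner ligands and receptors with other names (22 of 26 tested) had a median of 0.01, with 12 positive and 10 negative. Cntf, a neurotrophic cytokine that signals through Il6st, was the only one at an unadjusted p under 0.05. It was at 0.18 and 0.08 in MN, against -0.34 and -0.22 in control, a difference of 0.41 ± 0.14 with a limma p of 0.0455. Ifng, the interferon of type 1 T cells and natural killer cells, was at -4.88 and -5.47 in MN, against -4.48 and -4.79 in control. Its difference was -0.54 ± 0.27, or -0.26 with normexp background correction, and it was not well above background on MN array 2. The receptor Cntfr gave -1.27 by its brighter probe and 1.79 by the other. The brighter probe was not well above background on MN array 1 and gave -3.24 on slide 1 and 0.70 on slide 2.

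Of 15 tested genes induced by IL-6 and STAT3, 10 had positive differences and the median was 0.09. Both MN arrays lay above both control arrays for 7 of the 15 and below for 2, against 13.2% and 19.9% of all genes. At an unadjusted p under 0.05, 3 of the 15 were higher (Fgb, Hp and Timp1) and 1 lower (Saa3) in MN, against 3.54% and 3.49% of all genes. Haptoglobin, Hp, was at -1.57 and -1.85 in MN, against -2.50 and -2.56 in control, a difference of 0.82 ± 0.17 with a limma p of 0.0078. Fgb, the fibrinogen beta chain, was at -3.64 and -3.36 in MN, against -4.90 and -4.99 in control, a difference of 1.44 ± 0.17 that shrank to 0.57 with normexp background correction. Socs3, the classical target of this route, differed by -0.12.

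Of 11 tested genes induced by IL-4, IL-13 and STAT6, 6 were positive and 5 negative, with a median of 0.02. Retnla, made by alternatively activated macrophages and by adipose tissue, stood out from the list: it was at -1.10 and -1.26 in MN, against -2.89 and -3.09 in control. The difference was 1.81 ± 0.16, or 1.22 with normexp, at a limma p of 0.000329 and an adjusted p of 0.173. Clec10a, a lectin of such macrophages and dendritic cells, differed by 0.59 ± 0.21 with a limma p of 0.0497. Mrc1, also of this list, differed by 0.45 ± 0.14 with a limma p of 0.0342. These 3 of the 11 were higher in MN at an unadjusted p under 0.05 (against 3.54% of all genes) and 0 were lower (against 3.49%). Chil3, another marker of such macrophages, differed by 0.02.

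Markers of other cell types had differences of both signs, and their part in the values above was not tested. No marker of the 5 immune lists given here passed the adjusted threshold. In whole kidney, fewer cells of a type and less RNA per cell cannot be told apart. Of 12 T and natural killer cell markers, 10 were tested and all 10 had negative differences, with a median of -0.17 and none at a limma p under 0.05. Their summed linear level was 8.06 and 11.1 on the MN arrays and 9.27 and 12.2 on the control arrays, so the groups overlapped. The natural killer cell markers Ncr1 and Klrk1 were above background on no array. Of 8 tested B-cell markers 7 were negative (median -0.24), with sums of 3.14 and 3.81 in MN, against 3.97 and 3.94 in control. The gap between these sums depended on Fcmr, at -0.52 and -0.58 in MN, against 0.51 and -0.04 in control.

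Neutrophil and macrophage markers had mostly positive differences. Of 7 tested neutrophil markers 6 were positive (median 0.60), and Ly6g was negative at -0.24. Their sums, 63.8 and 70.1 in MN, against 45.1 and 57.6 in control, came mostly from Csf3r, by far the brightest. Mpo and Ngp were not tested, and the receptor Cxcr2 was above background on no array. Of 12 macrophage and dendritic cell markers 10 were positive (median 0.24), with sums of 32.7 and 34.4 in MN, against 31.5 and 31.5 in control. The brightest, Csf1r, was lower in MN without overlap, at a difference of -0.22. The gap between the sums depended on Itgam, at 2.16 and 2.99 in MN, against 0.98 and 1.90 in control. Its 3 tested probes ran from -0.21 to 1.13. Podocyte markers had a median difference of 0.63, with sums of 72.1 and 68.4 in MN, against 35.8 and 32.9 in control. Of 6 plasma cell markers 4 were positive (median 0.13), and 2 were negative, Sdc1 at -0.42 and Irf4 at -0.33. Their sums were 43.9 and 38.9 in MN, against 35.9 and 34.1 in control, and came mostly from Xbp1, by far the brightest. Jchain, which joins antibody chains, was at 0.78 and 1.0005 in MN, against -2.36 and -2.31 in control, a difference of 3.23 ± 0.15 with a limma adjusted p of 0.0665.

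Adipocyte markers, of which 7 of 10 had positive differences, are given beside Retnla, and their part in its value was not tested. Of these 10, 2 passed the adjusted threshold, the adipose serum proteins Cfd and Adipoq, each with a limma adjusted p of 0.0460. Adipoq was at -1.03 and -1.41 on the MN arrays and was not detected on the control arrays. Cfd was at 1.59 and 1.99 in MN, against -5.29, below detection, and -4.98 in control. Cidec, a lipid droplet protein, was at -1.02 and -1.08 in MN, against -3.65 and -3.62 in control, a difference of 2.59 ± 0.13 by this probe and 0.27 by the other. The list's median was 0.26, and its sums, 69.8 and 68.8 in MN and 74.8 and 65.0 in control, overlapped. Erythroid markers had a median of 0.44, with sums of 187 and 212 in MN, against 139 and 162 in control.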

How the data were processed

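Spot intensity, deposited as linear scanner output, was background-subtracted by Feature Extraction 10.5.1.1 per the file headers, which also replaced spots not above background by surrogates. The deposited value table, used only as an alternative, holds log2 values. The sources used here do not give their making; they matched scaled log2 signal minus the control mean, with replicates 1 and 2 exchanged in both groups and column medians from -0.04 to 0.03.

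Control and non-uniform spots were left out and spots of a probe averaged. The processed signal, as log2 relative to the 75th percentile of its array, was fitted by lmFit and eBayes of limma 3.58.1 (R 4.3.3; two-sided p, adjusted by Benjamini-Hochberg over all 25296 genes at a threshold of 0.05). The number of arrays limits precision (residual df 2). Probes were named through a RefSeq table of GRCm38.p6, which changed no interleukin name. Ratios for genes undetected in a group set the brighter group's mean against the dim group raised, array by array, to the lowest signal still well above background. Some probes brighter than that signal were still not well above background, so such a ratio is no firm lower bound.

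The members, gene lists and rules were chosen with earlier results of these data known. Named genes were those at an unadjusted p under 0.05, the 2 largest differences of each role, a fixed list of nephritis genes, and up to 4 genes with opposing probes. The others are named as examples after their values were seen. Slide and replicate number coincide, and across genes the deviations of arrays on one slide correlated at 0.626. Alternatives were normexp (offset 50), other scalings, filters, probe rules, names and variance models, the slide block and each array left out. The scripts were tested on simulated data.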

Additional observations from a re-analysis of the deposited data

How the results depend on the processing

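No interleukin or receptor gene had an adjusted p under 0.05 in any of 17 alternatives, and the median difference ranged from -0.163 to -0.0474. At an unadjusted p under 0.05, the number higher in MN, 2, was 4 with an intensity trend, 5 with the replicate block (slide) and 0 to 2 with 1 array left out. The number lower, 3, was 1 with quantile normalization, 1 with an intensity trend, 12 with the replicate block and 2 to 7 with 1 array left out. Groups without overlap, 8 higher and 17 lower, were 16 higher with no filter, 11 lower with quantile normalization, and 14 to 16 higher and 21 to 27 lower with 1 array left out, where fewer arrays have to be apart. Of 33 named genes, 23 kept their sign throughout. With normexp, Il1rap was at -0.0591, Il24 at -0.0386 and Il2rg at -0.0360. With the deposited table Il2rg was at -0.000433. The dimmer probe gave -0.0403 for Il1rap, -0.59 for Il22ra1 and -0.94 for Il24, and the mean of probes -0.43 for Il24. With 1 array left out, differences ran from -0.85 to 0.20 for Il10, -0.0937 to 0.17 for Il10rb, -0.00946 to 0.61 for Il11, -0.48 to 0.0422 for Il17ra, -0.0262 to 0.13 for Il1rap, -1.85 to 1.004 for Il23a, -0.17 to 0.34 for Il24, -0.23 to 0.24 for Il2rg and -0.62 to 0.15 for Il4ra. The causes were not tested. Il7, Il2ra and Il22ra2 were well above background on neither MN array, so the size of their differences is uncertain. With normexp these differences were -0.35 for Il7, -0.31 for Il2ra and -0.27 for Il22ra2.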

Other observations

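Other simple repeats in the probes were counted in the same way, after the values of the TG probes had been seen. The 59 tested probes with 6 or more CA units in a row had a median difference of 0.93 (MN minus control), with 1 negative value, and medians of 1.1 on slide 1 and 0.783 on slide 2. Against these, the 122 probes with 6 or more TG units had a median of -0.90, with 119 negative. Probes with 6 or more AG units (24 probes) had a median of 0.21, those with TC units (21 probes) of -0.18 and those with AT units (8 probes) of -0.00. No interleukin or receptor probe was among the CA, AG, TC or AT probes. With normexp background correction the CA median was 0.82 and the TG median -0.90.

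Promoters from RefSeq (GRCm38.p6, 250 bases before to 50 after each start) were found for 65 of the 82 genes, 80 promoters in all. They were searched on both strands for 4 motifs, overlaps between motifs were counted under each, and a gene was counted once, since some promoters of a gene share bases. TTCNNNGAA, the spacing bound by most STAT factors, was found for 16.9% of the 65 genes and for 9.55% of 27025 genes in the table. The same flanks TTC and GAA with 4 bases between them, the spacing that STAT6 also binds, were found for 21.5% and 8.01%. A pair of GAAA letters with 2 bases between them, an interferon response motif, was found for 4.62% and 3.99%, and TGANTCA, the AP-1 motif, for 21.5% and 8.97%. Promoters of the same length hold the wider STAT spacing in 6.95% of all 32851. The first of the Il33 promoters is shown because Il33 is the ligand with the smallest unadjusted p among those detected on all arrays, with its match to the wider STAT spacing in capitals.
Il33 promoter (chr19:29924863-29925162, plus strand, GRCm38.p6): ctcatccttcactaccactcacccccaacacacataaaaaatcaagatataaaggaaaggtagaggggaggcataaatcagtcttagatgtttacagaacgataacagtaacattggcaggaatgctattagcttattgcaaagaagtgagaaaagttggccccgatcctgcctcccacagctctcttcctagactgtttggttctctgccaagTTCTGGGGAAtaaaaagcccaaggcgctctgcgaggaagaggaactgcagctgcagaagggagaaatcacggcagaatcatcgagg
A match describes these letters and is not a measured binding site.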
